A study of Mus musculus with 29 samples.

Results

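The Lppr genes, Lppr1 to Lppr5, encode the plasticity-related proteins, a brain-enriched family of membrane proteins now named Plppr1 to Plppr5. They were matched by symbol in the deposited table, in which they are 5 of 31002 genes, and all 5 passed the filter on low values (1 TPM or more in 2 or more mice), as did 15554 genes in all. TPM is transcript abundance scaled to a fixed total and corrected for transcript length, so levels of different genes can be compared on this scale. The members were chosen by the lower level of Lppr4 in 22-month hAβ-KI mice, and the values that made this choice are described here without a test.

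Hippocampal RNA was sequenced from 15 mice aged 2 months (7 WT, 8 hAβ-KI) and 14 aged 22 months (8 WT, 6 hAβ-KI), with 1 library per mouse and both sexes in every group. The hAβ-KI mice are homozygous for an App allele in which the mouse Aβ sequence was changed to the human one, with loxP sites around an exon of App, under the gene's own promoter and with no transgene or Cre. Their strain is labelled C57BL/6NJ and that of the WT mice C57BL/6N, so genotype and substrain cannot be told apart. The index numbers of the libraries run in blocks that match the groups, and whether they follow the order of processing is not stated. If they do, that order and the group cannot be told apart either.

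The 5 proteins have the membrane-spanning stretches of the lipid phosphate phosphatases, which remove the phosphate from lysophosphatidic acid (LPA), sphingosine 1-phosphate (S1P) and related lipids outside the cell. The plasticity-related proteins lack conserved residues of that catalytic site, and most of them are not known to work as enzymes. Lppr4 (PRG-1) sits in the postsynaptic membrane of glutamatergic synapses of hippocampal pyramidal neurons, where it lowers the action of LPA on presynaptic LPA2 receptors and thereby restrains glutamate release. Lppr3 (PRG-2) is found in growing axons, and Lppr1 (PRG-3) and Lppr5 (PRG-5) promote filopodia and neurite growth when overexpressed. Less is known of Lppr2 (PRG-4).

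The promoters of Lppr2 and Lppr4 are shown because these were the most abundant members and those whose group mean was lowest in old hAβ-KI mice. All 5 members matched RefSeq promoters of GRCm38.p6, and each sequence below is the 250 bases before the RefSeq start, written 5′ to 3′ on the strand of the gene. Capitals mark the octamer ATGCAAAT, the motif bound by POU-domain factors, which Lppr2 holds 4 times. Lppr2 lies on the plus strand at chr9:21936760-21937009 and Lppr4 on the minus strand at chr3:117360877-117361126.
Lppr2: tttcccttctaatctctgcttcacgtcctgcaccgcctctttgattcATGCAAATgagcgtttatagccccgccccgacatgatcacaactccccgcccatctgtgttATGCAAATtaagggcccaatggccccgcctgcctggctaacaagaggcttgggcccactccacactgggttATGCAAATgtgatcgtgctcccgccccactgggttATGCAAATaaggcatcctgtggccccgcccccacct
Lppr4: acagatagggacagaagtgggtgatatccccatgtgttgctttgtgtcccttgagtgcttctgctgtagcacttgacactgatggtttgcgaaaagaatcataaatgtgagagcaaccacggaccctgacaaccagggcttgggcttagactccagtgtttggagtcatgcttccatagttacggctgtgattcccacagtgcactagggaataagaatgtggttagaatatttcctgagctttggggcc

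Among 32851 mouse promoters of this length, 1.6% held the octamer on either strand, 3 held it 3 or more times and 1, that of Lppr2, held it 4 times. The octamer was added to the search after the Lppr2 sequence had been read. The other motifs searched, on both strands, were the TATA box TATAAA (in 12.4% of promoters), CCAAT (33.8%), the GC box GGGCGG (32.7%), the E-box CACGTG (6.02%), the cAMP response element TGACGTCA (1.55%) and the AP-1 site TGACTCA (4.46%). None of these letters overlapped an octamer in Lppr2, which also held 1 TATA box, 1 CCAAT and 4 GC boxes. The Lppr1 window held 2 GC boxes, and those of Lppr3, Lppr4 and Lppr5 held none of the 7 motifs. The Lppr4 window was also the poorest in CG pairs, with 3, against 10 in Lppr2, 13 in Lppr5, 14 in Lppr3 and 19 in Lppr1 and a median of 6 over all promoters. A match of letters in these windows is not a measured binding site.

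Mouse 2 of the 22-month hAβ-KI group stood apart from the other 5 mice of its group, and values of the members that rest on it are given with and without it. Its summed TPM of 3 dentate granule cell markers was 42.5, against 84.3 to 107 in the others, and that of 5 oligodendrocyte markers was 2215, against 4094 to 5087. Its 6 inhibitory neuron markers summed to 1732, against 1122 to 1163. The most abundant genes of these sums were C1ql2 (77.6 TPM on average), Mbp (2577 TPM) and Sst (848.6 TPM). In old hAβ-KI mice the SD was 222.3 TPM for Sst and 15.4 TPM for Gad1, another inhibitory marker. The markers were not compared gene by gene in this mouse. Markers of hippocampal neurons were high in every library, with 5 excitatory neuron markers between 1701 and 2292 TPM. Markers of the choroid plexus, a tissue next to the hippocampus, ranged from 36.7 to 17890 TPM between mice and did so within every group.

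The order of the members was the same in all 29 mice, with no overlap between neighbours. Lppr2 was the highest, at 161.3 to 218.8 TPM, followed by Lppr4 at 57.5 to 118.2 TPM and Lppr3 at 27.6 to 51.9 TPM. Lppr5 ranged from 7.94 to 13.04 TPM and Lppr1 from 3.24 to 7.20 TPM. Lppr2 and Lppr4 together therefore made up most of the family's transcripts, and the values of each mouse are shown in the plot of the 5 genes by group.

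**Figure D1:**
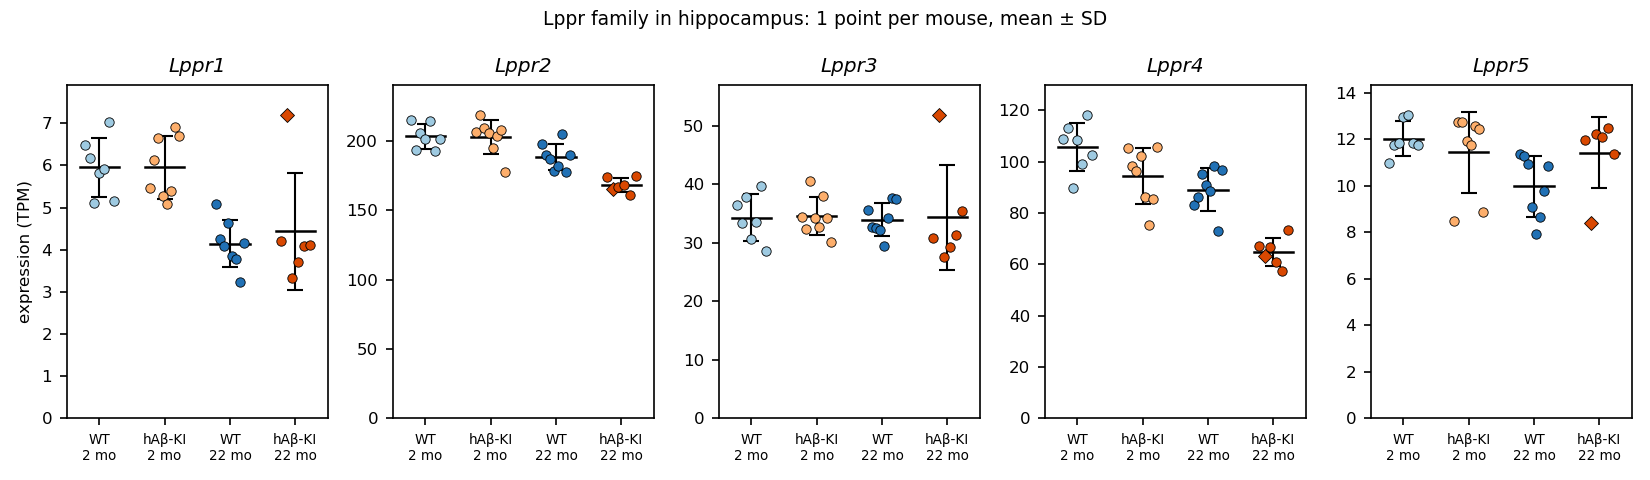
Expression (TPM, linear axes from 0) of the 5 Lppr genes, with 1 point per mouse, the group mean as a line and the SD as an error bar, in young WT, young hAβ-KI, old WT and old hAβ-KI mice (n = 7, 8, 8 and 6). The diamond is mouse 2 of the 22-month hAβ-KI group, which is apart from its group for Lppr1, Lppr3 and Lppr5 but not for Lppr2 and Lppr4, and the old hAβ-KI mice lie lowest for Lppr4 with a mean of 64.8 TPM.

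Lppr4 (ENSMUSG00000044667, minus strand of chromosome 3, 117319139 to 117360876 of GRCm38) had its highest levels in young WT mice, at 89.7, 108 and 118 TPM (lowest, median and highest of 7). In young hAβ-KI mice it was at 75.4, 97.3 and 106 TPM (of 8), and in old WT mice at 73.0, 89.7 and 98.3 TPM (of 8). In old hAβ-KI mice it was at 57.5, 65.01 and 73.4 TPM (of 6). Of these 6 mice, 5 were below every old WT mouse, and all 6 were below every young hAβ-KI mouse. In WT mice 4 of the 8 old ones were below every young one. Full separation with age in hAβ-KI mice held for 0.919% of all genes, and the choice of Lppr4 favours it. Partial separations, here and for the other members, were not counted over all genes.

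The group means of Lppr4 were 106 ± 9.46 (SD, n = 7) and 94.3 ± 10.9 TPM (n = 8) in young WT and hAβ-KI mice and 89.0 ± 8.38 (n = 8) and 64.8 ± 5.55 TPM (n = 6) in old ones. At 22 months the hAβ-KI mean was 72.8% of the WT mean, a log2 fold change of -0.45 (standard error 0.08), on the log2(TPM + 1) scale used throughout. The age difference was -0.25 (standard error 0.07) in WT and -0.53 (standard error 0.08) in hAβ-KI mice, and the genotype difference at 22 months exceeded that at 2 months by -0.28 (standard error 0.10). With age in hAβ-KI mice, Lppr4 had the 44th lowest log2 fold change of the 15554 genes, a rank that the choice of Lppr4 favours and that is no test. These 4 differences use the mice that chose the family and carry no test. Mouse 2 did not set them, since the genotype difference without it was -0.44.

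The 2-month mice took no part in the choice. At that age the mean of Lppr4 in hAβ-KI mice was 89.2% of that in WT mice, a difference of -0.17 on the log2 scale (standard error 0.07, 95% interval -0.31 to -0.02), with all 8 hAβ-KI mice below the WT median and 3 of them below every WT mouse. This difference did not pass the adjustment over all genes (limma, unadjusted p = 0.0282, adjusted p = 0.707), and 6.69% of all genes had an unadjusted p under 0.05 in this comparison. Leaving out each mouse in turn moved it between -0.21 and -0.12, without a call. It was -0.14 after rescaling to nuclear protein-coding genes (limma, adjusted p = 0.864) and -0.15 after quantile normalization (adjusted p = 0.797). In the main model 64.6% of all genes were below 0 in this comparison, with a median of -0.03. How many of all genes lie as far below the WT mice was not determined.

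At 2 months of age none of the 5 members was called between genotypes (limma, Benjamini-Hochberg FDR under 0.1 with p under 0.05), where 0.0386% of the genes tested were called. Lppr4 was the only member with an unadjusted p under 0.05. The log2 fold changes of the other 4 members were -0.00 for Lppr1 (95% interval -0.21 to 0.21), -0.00 for Lppr2 (-0.08 to 0.07), 0.01 for Lppr3 (-0.18 to 0.21) and -0.08 for Lppr5 (-0.27 to 0.11). These intervals bound the size of a difference that the 15 young mice leave possible, which is narrowest for Lppr2.

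Lppr2 (ENSMUSG00000040563, plus strand of chromosome 9, 21937033 to 21948907) showed the smallest spread between mice relative to its mean, with an SD of 2.98% to 6.01% of the mean in the 4 groups. It was at 192.8, 201.7 and 215.4 TPM (lowest, median and highest) in young WT and at 177.7, 206.1 and 218.8 TPM in young hAβ-KI mice. In old WT mice it was at 177.6, 188.4 and 204.8 TPM, and in old hAβ-KI mice at 161.3, 167.7 and 174.7 TPM. Every old hAβ-KI mouse was below every mouse of the other 3 groups.

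With age in hAβ-KI mice Lppr2 fell from 203.0 ± 12.2 (SD, n = 8) to 168.5 ± 5.02 TPM (n = 6), or by 0.27 on the log2 scale (standard error 0.04, limma, adjusted p = 0.000155). It stayed past the threshold in all 9 alternative settings and with each of the 29 mice left out. In WT mice the means were 203.5 ± 9.01 (n = 7) and 188.4 ± 9.34 TPM (n = 8), and the difference of -0.11 (standard error 0.04) did not pass (limma, adjusted p = 0.122). Without old WT mouse 6 or young hAβ-KI mouse 8 its adjusted p was 0.0694 and 0.0771, whereas quantile normalization brought it to -0.05 (adjusted p = 0.493). At 22 months the genotype difference of Lppr2 was -0.16 (standard error 0.04), with an hAβ-KI mean at 89.4% of the WT mean, given as a description because it comes from the contrast that chose the family; such full separation held for 0.193% of all genes.

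Lppr1 (ENSMUSG00000063446, plus strand of chromosome 4, 49059273 to 49340259), the filopodia-promoting PRG-3, was the lowest member and, of the 4 tested with age, the one called lower in both genotypes. In WT mice it went from 5.10, 5.92 and 7.03 TPM (lowest, median and highest) at 2 months to 3.24, 4.13 and 5.09 TPM at 22 months, so that all 8 old mice were below all 7 young ones. The means were 5.95 ± 0.69 (SD, n = 7) and 4.14 ± 0.56 TPM (n = 8), a difference of -0.44 on the log2 scale (standard error 0.10, limma, adjusted p = 0.0178). This difference stayed past the threshold in all 9 alternative settings and with each of the 29 mice left out.

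In hAβ-KI mice Lppr1 went from 5.08, 5.80 and 6.92 TPM at 2 months to 3.34, 4.10 and 7.20 TPM at 22 months. Of the 6 old mice, 5 were below every young hAβ-KI mouse and mouse 2 was above every one. The difference was -0.38 (standard error 0.11, limma, adjusted p = 0.0357) with mouse 2 and -0.50 (standard error 0.09, adjusted p = 0.000635) without it. It missed the threshold when only the 2 groups compared were fitted (adjusted p = 0.111) and when old hAβ-KI mouse 3, the lowest, was left out (adjusted p = 0.101). Between genotypes at 22 months the values were 4.44 ± 1.39 TPM (n = 6) in hAβ-KI and 4.14 ± 0.56 TPM (n = 8) in WT mice, and 3.89 ± 0.36 TPM (n = 5) in hAβ-KI mice without mouse 2.

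Lppr5 (ENSMUSG00000033342, plus strand of chromosome 3, 117574836 to 117689507), the close relative of Lppr1, was at 10.95, 11.8 and 13.04 TPM (lowest, median and highest) in young WT and at 8.47, 12.2 and 12.8 TPM in young hAβ-KI mice. Old WT mice had 7.94, 10.3 and 11.4 TPM and old hAβ-KI mice 8.38, 12.03 and 12.5 TPM. In old WT mice 6 of 8 were below every young WT mouse, and the lowest old hAβ-KI value was that of mouse 2, whose 5 group mates lay between 11.4 and 12.5 TPM.

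The age difference of Lppr5 in WT mice, from 12.02 ± 0.74 (SD, n = 7) to 9.98 ± 1.31 TPM (n = 8), was -0.25 (standard error 0.09) and did not pass the threshold (limma, adjusted p = 0.140). It did when only the 2 groups compared were fitted (adjusted p = 0.0977) or when old hAβ-KI mouse 2, which enters through the shared estimate of spread, was left out (adjusted p = 0.0842). Its age difference in hAβ-KI mice was 0.00 (95% interval -0.19 to 0.20, adjusted p = 0.995). At 22 months Lppr5 had the opposite sign to its chromosome neighbour Lppr4, with 11.4 ± 1.53 TPM (n = 6) in hAβ-KI against 9.98 ± 1.31 TPM (n = 8) in WT mice. That difference was 0.18 (standard error 0.10) with mouse 2 and 0.26 (standard error 0.09) without it, described without a test. Of the 6 hAβ-KI mice, 5 were above every WT mouse. The lowest of these 5 was at 11.37 TPM and the highest WT mouse at 11.36 TPM, so the count rests on a very small gap. How many of all genes separate as far was not determined. With all mice, 90.2% of the genes tested had a lower log2 fold change than Lppr5 in this comparison.

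Lppr3 (ENSMUSG00000035835, minus strand of chromosome 10, 79860475 to 79874634), the axonal PRG-2, had nearly equal group means of 34.3 ± 3.99 (SD, n = 7), 34.6 ± 3.29 (n = 8), 34.0 ± 2.81 (n = 8) and 34.4 ± 8.95 TPM (n = 6), in the order young WT, young hAβ-KI, old WT, old hAβ-KI. The age differences were -0.01 in WT (95% interval -0.20 to 0.18, limma, adjusted p = 0.977) and -0.04 in hAβ-KI mice (95% interval -0.24 to 0.17, adjusted p = 0.891). Mouse 2 decided the value in old hAβ-KI mice, at 51.9 TPM against 27.6 to 35.4 TPM in the other 5. Without it the mean was 30.9 ± 2.90 TPM (n = 5) and the age difference -0.16, which did not pass the threshold (limma, unadjusted p = 0.0490, adjusted p = 0.243); 19.9% of all genes had an unadjusted p under 0.05 there with all mice in the model.

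**Figure D2:**
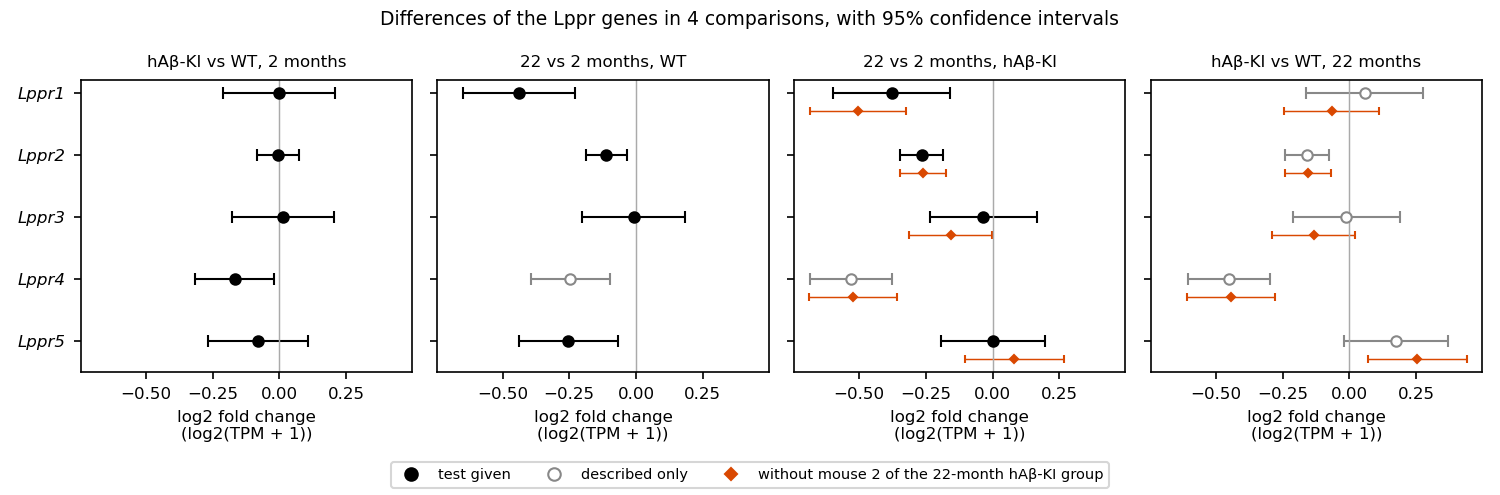
Log2 fold changes of log2(TPM + 1) with 95% confidence intervals for the 5 Lppr genes in 4 comparisons, from limma in 29 mice. Filled circles carry a test, open grey circles are described only, and diamonds leave out mouse 2 of the 22-month hAβ-KI group, which moves Lppr1 with age in hAβ-KI mice from -0.38 to -0.50 and leaves Lppr4 between genotypes at 22 months at -0.44.

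Over the members whose age differences could be tested, Lppr1, Lppr2, Lppr3 and Lppr5, 1 of 4 was called in WT mice and 2 of 4 in hAβ-KI mice, each of them lower at 22 months. Of all genes tested, 5% were called with age in WT mice (3.07% lower) and 9.18% in hAβ-KI mice (5.32% lower). In WT mice 300 of the 777 genes called were higher, and quantile normalization gave 381 higher of 611 and rescaling to nuclear protein-coding genes 408 of 712. Lppr1 was the 1 tested member whose old WT mice all lay below the young ones, which held for 0.431% of all genes. Lppr2 was the 1 tested member with the same separation in hAβ-KI mice, where it held for 0.919%. Whether the age differences of these 4 members differed between genotypes was not tested.

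Markers of cell types moved in the same age comparisons. In hAβ-KI mice 1 of 5 neuronal markers (Rbfox3, -0.19, standard error 0.05, limma, adjusted p = 0.0190) and 2 of 5 excitatory ones fell. The latter were Camk2a (-0.18, standard error 0.05, limma, adjusted p = 0.0362) and Neurod6 (-0.44, standard error 0.15, adjusted p = 0.0761). Neurod6 averaged 119.2 TPM with an SD of 36.28 in old hAβ-KI mice, against 153.1 TPM with an SD of 10.56 in young ones. Whether its fall holds without old hAβ-KI mouse 2 was not examined. With age in hAβ-KI mice 1 of 5 astrocyte markers, Gfap, rose by 0.71 (standard error 0.15, limma, adjusted p = 0.00383) and 4 of 5 microglial markers rose. In WT mice 1 of 5 neuronal markers fell (Stmn2, -0.23, standard error 0.05, limma, adjusted p = 0.0108) and 0 of 5 excitatory ones, while Gfap rose by 0.62 (standard error 0.14, adjusted p = 0.0153) and 4 of 5 microglial markers rose. The microglial markers summed to 133 to 156 TPM in old and 115 to 138 TPM in young hAβ-KI mice, and to 141 to 169 and 114 to 146 TPM in WT mice. The neuronal sums overlapped between ages, at 2506 to 2676 and 2481 to 2843 TPM in hAβ-KI and at 2400 to 2814 and 2544 to 2851 TPM in WT mice. Gpr17, a marker of oligodendrocyte precursors, fell in both genotypes, at -0.93 in WT (limma, adjusted p = 1.25e-07) and -0.77 in hAβ-KI mice (adjusted p = 5.98e-06). In WT mice the precursor marker Cspg4 (0.21, adjusted p = 0.0829) and the endothelial Flt1 (0.31, adjusted p = 0.0498) rose. The oligodendrocyte marker Mog fell there (-0.42, adjusted p = 0.0793). The part of these markers in the age differences of the members was not tested.

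Counted together, the family's transcripts amounted to 361.4 ± 10.4 (SD, n = 7) and 349.3 ± 16.2 TPM (n = 8) in young WT and hAβ-KI mice and to 325.5 ± 15.7 (n = 8) and 283.5 ± 12.9 TPM (n = 6) in old ones. Lppr4 made up 29.2% ± 2.31 and 26.99% ± 2.94 of that sum in young WT and hAβ-KI mice, and 27.3% ± 1.84 and 22.8% ± 1.35 in old ones. The share of Lppr2 ran from 56.3% to 59.5% over the same groups. The ratio of Lppr4 to Lppr5 within a mouse was 5.79 ± 1.06 (n = 6) in old hAβ-KI mice, or 5.43 ± 0.69 (n = 5) without mouse 2, against 9.08 ± 1.61 (n = 8) in their WT counterparts and 8.83 ± 1.04 (n = 7) and 8.55 ± 2.36 (n = 8) in young WT and hAβ-KI mice. These shares carry the choice of Lppr4 and are a description.

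**Figure D3:**
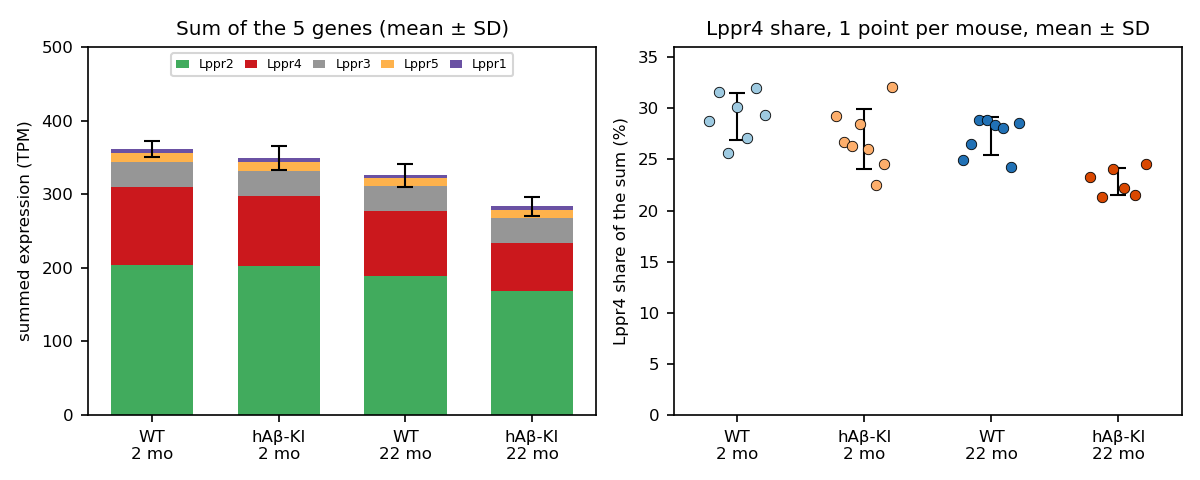
Left, summed TPM of the 5 Lppr genes in the 4 groups, stacked by gene from the group means, with the SD of the sum over mice. Right, the share of Lppr4 in that sum in percent, with 1 point per mouse and the group mean ± SD as an error bar, which is 22.8% in old hAβ-KI mice and 26.99% to 29.2% in the other groups.

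In bulk tissue, fewer neurons and less RNA per neuron cannot be told apart. The summed TPM of 5 neuronal markers (Rbfox3, Snap25, Syt1, Map2 and Stmn2) was 2506 to 2676 in old hAβ-KI and 2400 to 2814 in old WT mice, and the least abundant of them, Map2, averaged 55.7 TPM. That of 5 excitatory neuron markers was 1701 to 2048 in old hAβ-KI and 1751 to 2165 in old WT mice. Set against the excitatory marker sum of the same mouse, Lppr4 stood at 3.41% ± 0.258 in old hAβ-KI mice (n = 6, 3.04% to 3.72%). In old WT mice it stood at 4.38% ± 0.376 (n = 8, 3.95% to 4.92%). These values use the mice that chose the family and carry no test. Lppr2 stood at 8.87% ± 0.510 and 9.30% ± 0.658, and the groups overlapped. Set against the neuronal marker sum, Lppr2 stood at 6.44% to 6.73% in old hAβ-KI and 6.74% to 8.15% in old WT mice. Lppr4 stood at 2.30% to 2.83% and 3.04% to 3.91%. Camk2a (1249 TPM on average) and Snap25 (1815 TPM) were the most abundant markers of the excitatory and the neuronal sum. How many of all genes separate the groups on such ratios was not determined, so nothing is read from these ranges. Of the 10 markers in both lists, Rbfox3, which encodes the neuronal nuclear protein NeuN, was the 1 past the threshold between genotypes at 22 months, at 127 ± 7.27 (n = 6) against 146 ± 10.3 TPM (n = 8) or -0.20 on the log2 scale (standard error 0.05, limma, adjusted p = 0.0678).

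None of the 10 pairs of members was correlated past the adjustment between mice of the same group. After group means were removed, the largest of the 10 pairwise correlations over the 29 mice was that of Lppr1 and Lppr3 (Pearson r = 0.60, permutation p = 0.0260, adjusted p = 0.260 over the 10 pairs, Spearman rho = 0.30, permutation p = 0.125, adjusted p = 0.416). It rested on few mice, since r was 0.27 without the 2 mice farthest from the median of Lppr1 and 0.21 without old hAβ-KI mouse 2. Lppr4 and Lppr5 had an r of -0.31 (permutation p = 0.144, adjusted p = 0.481) and a rho of -0.34 (permutation p = 0.0857, adjusted p = 0.416). Lppr2 and Lppr4, both lowest in old hAβ-KI mice, had an r of 0.05 within groups (permutation p = 0.836, adjusted p = 0.910) and a rho of 0.12 (permutation p = 0.559, adjusted p = 0.886).

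The genes whose levels followed each member most closely over the 29 mice differed from member to member. For Lppr4 they included Dis3l2, an exonuclease of RNA decay, and Naa25, an N-terminal acetyltransferase subunit, each with a Pearson r of 0.90 over all mice and of 0.78 and 0.75 after group means were removed. The closest gene to Lppr4 within groups was Gria2, a subunit of AMPA-type glutamate receptors (r = 0.82 within groups and 0.83 overall), named here after its value was seen. For Lppr2 they included Icam5, a dendritic adhesion protein (0.91 over all mice, 0.81 within groups), and Fam131a (0.90, 0.80).

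Lppr1 was followed by Marcksl1, an actin-binding protein (0.85 over all mice, 0.67 within groups), Ppp2r2b, a regulatory subunit of protein phosphatase 2A (0.83, 0.75), and Stmn2, a microtubule regulator of growing neurites (0.82, 0.65). Lppr5 was followed by Ywhah, a 14-3-3 protein (0.90, 0.91), Ttc39c (0.90, 0.89) and Fam49b (0.89, 0.87). Lppr3 was followed by Klhl1 (0.85, 0.85), Nploc4 (0.78, 0.79) and Stx1a, a syntaxin of the presynaptic membrane (0.78, 0.78), and Klhl1 itself was low, at 0.795 TPM on average. The 99th percentile, among all genes tested, of r over all mice lay between 0.60 and 0.74 for the 5 members. Genes picked as those of highest r exceed it by that choice, and no such percentile is given for r within groups. Without old hAβ-KI mouse 2 the within-group r was 0.33, 0.57 and 0.31 for the genes of Lppr1, 0.74, 0.67 and 0.50 for those of Lppr3 and 0.89, 0.86 and 0.88 for those of Lppr5, in the order named. The values share libraries and group differences, so they are given as a description.

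Lppr4 and Lppr5 are neighbours on chromosome 3, transcribed away from each other from starts 213960 bases apart, with no other gene of the table between them. Within 1000000 bases of the pair the table held 33 other genes, of which 14 were tested and 0 were called in any of the 4 comparisons by limma. For the genotype difference at 22 months, the log2 fold changes of these 14 genes ran from -0.27 to 0.12 with a median of -0.08, beside a median of -0.01 over all genes, and none had an unadjusted p under 0.05. The nearest tested genes on either side were Palmd (-0.11, standard error 0.09) and Snx7 (-0.05, standard error 0.09).

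**Figure D4:**
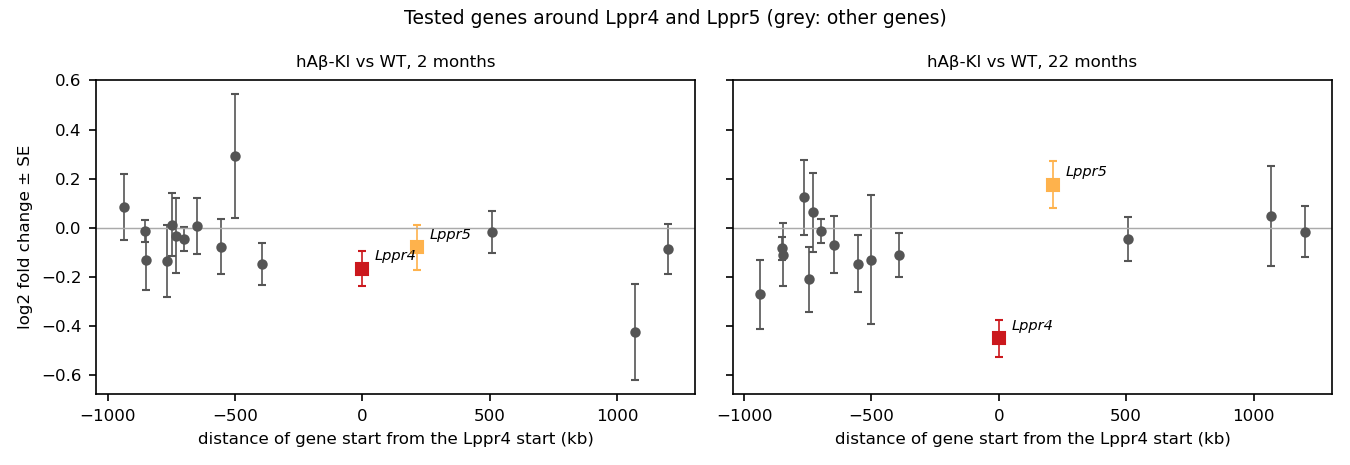
Log2 fold change ± standard error of hAβ-KI against WT mice at 2 months (left) and 22 months (right) for Lppr4, Lppr5 and the 14 other tested genes around them, by the distance of each gene's start from that of Lppr4 in kb. At 22 months Lppr4 is at -0.45 and Lppr5 at 0.18, while the other 14 genes lie between -0.27 and 0.12.

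The other genes of the pathway were read in the same model. Of 9 lipid phosphate phosphatases and sphingosine phosphate phosphatases, all tested, 1 was called in 1 comparison, since Sgpp2 rose with age in WT mice (3.75 ± 0.68 to 4.82 ± 0.82 TPM, n = 7 and 8, log2 fold change 0.29, standard error 0.09, limma, adjusted p = 0.0943). The 2 most abundant, Ppap2b (136 TPM on average) and Ppap2a (36.1 TPM), which degrade LPA at the cell surface, were not called in any comparison. At 22 months the median log2 fold change of the 9 between genotypes was -0.00.

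Of 11 receptors for LPA and S1P, 9 passed the filter. The LPA2 receptor gene Lpar2, through which Lppr4 is known to act, was near 0, at 0.032 TPM on average, and Lpar3 was at 0.279 TPM, so neither was tested. S1pr3 rose with age in hAβ-KI mice, from 4.15 ± 0.61 (n = 8) to 5.27 ± 0.96 TPM (n = 6), a rise of 0.28 on the log2 scale (standard error 0.09, limma, adjusted p = 0.0610), and no other receptor was called in any comparison. S1pr1 (82.2 TPM on average) and Lpar1 (20.8 TPM) were the most abundant.

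Among 14 enzymes and transporters that make, degrade or export LPA and S1P, 12 were tested and 3 were called, all with age in WT mice. The acylglycerol kinase gene Agk had a log2 fold change of -0.18 (standard error 0.06, limma, adjusted p = 0.0846), the acyltransferase gene Agpat5 one of -0.16 (standard error 0.05, adjusted p = 0.0848) and the S1P lyase gene Sgpl1 one of 0.17 (standard error 0.05, adjusted p = 0.0943). Enpp2, which encodes the LPA-producing enzyme autotaxin and is highly expressed in choroid plexus, varied widely between mice of every group, with 324.5 ± 154 (n = 6) in old hAβ-KI and 414 ± 351 TPM (n = 8) in old WT mice. The genotype difference at 22 months was 0.01 with a standard error of 0.73 on the log2 scale.

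Of 9 genes for proteins reported to bind or act with a member, Lpar2, also in the receptor list, failed the filter. With age, 2 of the other 8 were called in WT mice and 3 in hAβ-KI mice, where 5% and 9.18% of all genes were. Ppp2r1a, the scaffold subunit of protein phosphatase 2A, fell in both, by 0.09 (standard error 0.03, limma, adjusted p = 0.0997) and 0.16 (standard error 0.03, adjusted p = 0.00311) on the log2 scale. Calm2, a calmodulin gene, fell in both as well, by 0.11 (adjusted p = 0.0779) and 0.10 (adjusted p = 0.0789), and Ppp2cb, a catalytic subunit of protein phosphatase 2A, rose in hAβ-KI mice by 0.32 (adjusted p = 0.0527). None of the 8 genes was called between genotypes at either age.

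The 35 genes of a list chosen for the excitatory postsynapse, where Lppr4 protein sits, were all tested. The list also holds Nlgn2, a neuroligin not particular to excitatory synapses, which was not called in any comparison. With age in hAβ-KI mice 6 of them fell and 2 rose, where 9.18% of all genes were called (5.32% lower), and the 4 with the smallest p were Lrrtm1 (-0.27, standard error 0.05, limma, adjusted p = 0.00142), Nlgn3 (-0.25, 0.05, adjusted p = 0.00244), Homer1 (0.38, 0.08, adjusted p = 0.00304) and Camk2a (-0.18, 0.05, adjusted p = 0.0362). The median of the 35 was -0.00, the same as over all genes to 2 decimals. In WT mice Shank3 rose by 0.52 (standard error 0.10, adjusted p = 0.00454) and Nlgn3 fell by 0.15 (standard error 0.05, adjusted p = 0.0863), and no other was called.

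Between genotypes at 22 months 1 of the 35 was called, where 0.495% of all genes were (0.347% lower). This was Grin2a, an NMDA receptor subunit, with 12.3 ± 2.02 (n = 6) in hAβ-KI against 16.2 ± 1.39 TPM (n = 8) in WT mice, or -0.39 on the log2 scale (standard error 0.09, limma, adjusted p = 0.0677). The log2 fold change was below 0 in 24 of 35 with a median of -0.09, where 54.2% of all genes were below 0 and their median was -0.01. At 2 months none was called, and 28 of 35 were below 0 with a median of -0.08, where 64.6% of all genes were below 0 and their median was -0.03.

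**Figure D5:**
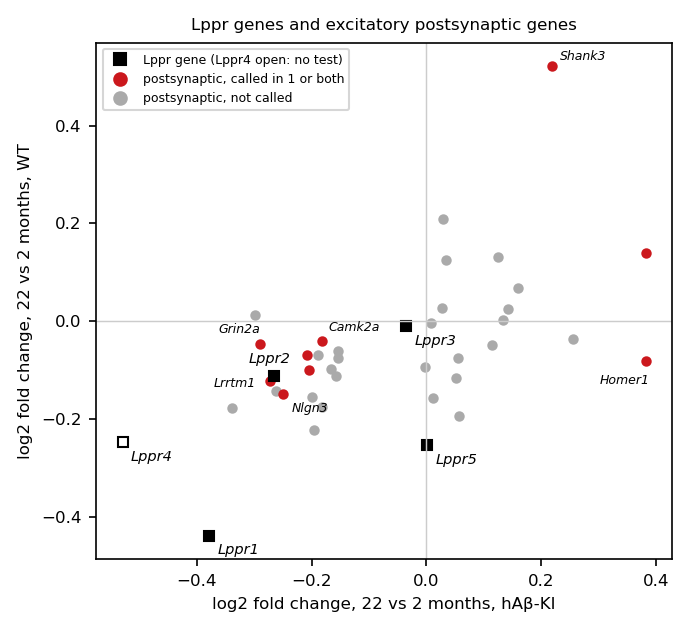
Log2 fold change with age in WT mice against that in hAβ-KI mice for the 5 Lppr genes (squares) and the 35 genes of the excitatory postsynapse list (circles). Circles are red where called in 1 or both comparisons. Lppr1 lies lowest with age in WT mice at -0.44 and Lppr4 lowest in hAβ-KI mice at -0.53, where the point of Lppr4 is open because it carries no test, and Shank3 lies highest in WT mice at 0.52 and Homer1 at 0.38 in hAβ-KI mice.

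The libraries do not mark strand, so reads from overlapping genes on opposite strands are split by estimation. Exons of Lppr3 share 251 bases (5.76% of its exonic bases) with Ptbp1 and 159 bases (3.65%) with Prtn3, both on the plus strand. Ptbp1, an RNA-binding protein gene at 25.5 TPM on average, was not called in any comparison. Of the 43-base stretches of the members' transcripts, the length of a read, 4.26% of Lppr1, 5.42% of Lppr3 and 0.559% of Lppr4 also occur in transcripts of other genes, whereas 0% of those of Lppr2 and Lppr5 do. The stretches of Lppr4 that are shared lie in 239 other genes.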

How the data were processed

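The authors aligned reads of 43 bases with STAR 2.5.1b to GRCm38, quantified genes of Gencode vM8 with RSEM 1.2.22, and deposited the TPM of protein-coding and long non-coding genes. The TPM of a mouse summed to 717500 to 816900. TPM hold no counts and the methods state only an approximate read number for all samples alike, so the depth of single libraries was not used, and the precision given is the spread between mice. The 15554 genes at 1 TPM or more in 2 or more mice were compared on log2(TPM + 1), with a pseudocount of 1, in 1 limma model of the 4 groups with a mean-variance trend (lmFit, eBayes; limma 3.58.1, R 4.3.3). A call was a Benjamini-Hochberg FDR under 0.1 with p under 0.05. The script was checked on simulated data.

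The members and lists were chosen with earlier results of these data known. Lppr4 was tested at 2 months only, the other members at 2 months and with age, and no member between genotypes at 22 months. Genes named beside the members were the 3 with the highest Pearson r to each, those past the threshold in each list (at most 4 for each list and comparison, by p) or else its 2 most abundant, the nearest chromosome neighbours and overlapping genes. A few genes that this rule names are not reported here. Correlations used 100000 two-sided permutations within groups. Positions come from GENCODE M21 on GRCm38, to which 30645 of 31002 genes matched, and promoters from RefSeq on GRCm38.p6. Alternatives were a pseudocount of 0.1, other filters, quantile normalization, rescaling to nuclear protein-coding genes, fits to only the groups compared, without a trend or with sex as covariate, mice sharing a name number treated as correlated, and leaving out each mouse. Other steps ran in Python 3.11.15 (pandas 2.3.3, numpy 2.4.6, scipy 1.17.1).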

Additional observations from a re-analysis of the deposited data

Results flagged for a closer look

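In 3 of the 20 sets of values of a member in a group, 1 mouse lay further from the rest than Dixon's 95% limit allows, which chance gives in about 1 of 20 sets. All 3 came from mouse 2 of the 22-month hAβ-KI group. Lppr1 was at 7.20 TPM in this mouse with the next highest of the group at 4.2 TPM. Lppr3 was at 51.9 TPM with the next highest at 35.4 TPM. Lppr5 was at 8.38 TPM with the next lowest at 11.4 TPM. Lppr2 and Lppr4 of the same mouse, at 165.6 and 63.2 TPM, lay within its group. The part of the shifted marker levels of this library in these values was not tested.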

How the results depend on the processing

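None of the 5 members was called between genotypes at 2 months in any of the 9 alternative settings or with any of the 29 mice left out. With only the groups compared in the model, 2 of 4 members in place of 1 were called with age in WT mice (Lppr5 added) and 1 in place of 2 with age in hAβ-KI mice (Lppr1 lost), and the cause was not tested. The other 8 settings kept both counts. Leaving out each mouse gave 1 to 2 members called with age in WT mice and 1 to 2 in hAβ-KI mice. The genotype difference of Lppr4 at 22 months ran from -0.46 to -0.43 over the settings and from -0.49 to -0.42 over the mice left out. Of all genes, 77 were called between genotypes at 22 months and 40 with only the groups compared, 48 without a trend and 49 with mice sharing a name number treated as correlated. In that comparison 23 of 77 were higher, and 29 of 70 after rescaling. The correlations, ratios and closest-gene values without old hAβ-KI mouse 2 were added after the data were seen. No paired analysis was possible because the groups share no replicate numbers that pair mice.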

Other observations

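Lppr5 was also low in 2 young hAβ-KI mice, mice 1 and 8, at 8.47 and 8.85 TPM, while the other 6 of that group lay between 11.7 and 12.8 TPM. The 2 lowest old WT mice, mice 5 and 6, were at 7.94 and 8.66 TPM. Lppr4 was at 105 and 106 TPM in the same young hAβ-KI mice, the 2 highest values of that group. In old WT mice 5 and 6 it was at 88.4 and 98.3 TPM (group median 89.7). In old hAβ-KI mouse 2, also low for Lppr5, it was at 63.2 TPM (group median 65.01). Within groups the correlation of Lppr4 and Lppr5 did not pass the adjustment (Pearson r = -0.31, permutation test, adjusted p = 0.481). The gene whose level followed Lppr5 most closely within groups was Nsmce4a, with an r of 0.92 after group means were removed over the 29 mice and of 0.90 without old hAβ-KI mouse 2, a gene named here after its value was seen.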
